A study of Mus musculus with 12 samples.

Results

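The 27 genes described here cover the synthesis of cholesterol, its control by the transcription factor SREBP2 and part of the uptake and transport of sterols. They were taken by gene symbol from a table of raw counts for 53599 mouse genes. Of the 27 genes, 18 encode enzymes, from the acetyl-CoA end of the pathway (8 genes, here called the mevalonate arm) to the conversion of squalene into cholesterol (10 genes, the sterol arm). A further 4 control SREBP2 (Srebf2, Scap, Insig1 and Insig2), and 5 serve uptake and transport (Stard4, Mylip, Npc1, Npc2 and Npc1l1). A filter on low counts kept 14798 genes of the table and 26 of the 27. Npc1l1, with 55 counts in all 12 libraries together, did not pass it.

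The cells are CLiPs, chemically induced progenitor-like cells from mouse liver, of hepatocyte origin (hepCLiP) or of biliary epithelial origin (bilCLiP), in 2 cultures and 3 libraries per group. The bilCLiP 3D and hepCLiP 3D groups were spheroids, formed over 3 days in Aggrewell400 microwells in small hepatocyte medium (SHM) without fetal bovine serum (FBS), and then kept 6 to 8 days in low-attachment suspension with oncostatin M at 10 ng/ml, a cytokine of the interleukin 6 family. The bilCLiP 2D and hepCLiP 2D groups grew on collagen-coated plates in SHM with 10% FBS. All 4 groups received YAC, that is Y-27632, A83-01 (a TGF-beta receptor inhibitor) and CHIR99021 (a GSK3 inhibitor). Serum, cytokine, cell shape and time therefore changed together between 2D and 3D, and their parts cannot be told apart. The genotype tag reads RosaConfetti, a multicolour reporter, for hepCLiP replicates 1 and 3, and RosaYFP, a yellow fluorescent reporter, for hepCLiP replicate 2 and for all bilCLiP replicates. By this tag, hepCLiP replicate 2 differs from hepCLiP replicates 1 and 3. Otherwise the labels do not tie the replicates to different animals. The p-values cover the spread between these libraries, which may be technical in part and, in bilCLiP, as a whole. Reporter genotype and cell origin are partly tied, so their parts in a difference between the origins cannot be told apart.

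Groups follow the sample titles. A second label, the treatment tag, reads 2D for the 3 bilCLiP 3D libraries and 3D for hepCLiP 2D replicate 3. Across genes, the bilCLiP 3D libraries had correlations of log2 CPM of 0.955 to 0.976 among themselves and of 0.781 to 0.879 to bilCLiP 2D. HepCLiP 2D replicate 3 had 0.956 to 0.965 to the rest of its group by title and 0.833 to 0.865 to hepCLiP 3D. Total counts ran from 16142365 to 21253382 per library. CPM below is a count scaled to a common library size that was adjusted by TMM, a method in edgeR that evens out the composition of libraries. The TMM factors were 0.764 to 0.941 in 3D and 1.16 to 1.26 in 2D, and the 10 most abundant genes took 17.6% to 23.2% of the counts in 3D and 4.997% to 7.47% in 2D. With library totals in place of TMM, the median log2 fold change of all genes, 3D against 2D, moved to -0.47 in bilCLiP and -0.63 in hepCLiP, from values near 0 with TMM. Hepatocyte markers (Alb, Ttr, Apoa1, Hnf4a and Cps1) summed to between 17329 and 51233 CPM in 3D and between 178 and 1600 CPM in 2D. Their sum was thus higher in 3D, but Hnf4a was present in every 2D library, at 135 to 378 CPM, against 571 to 1047 CPM in 3D. Biliary markers (Krt19, Krt7, Sox9, Epcam and Spp1) summed to between 11268 and 33256 CPM in 3D and between 3113 and 10330 CPM in 2D, but most of that sum was Spp1, which rose in both origins. Krt19 fell in both origins, to between 1.17 and 18.7 CPM in 3D, against 476 to 1100.1 CPM in 2D, Krt7 fell in hepCLiP (-3.18 ± 0.93) and was not called in bilCLiP (-2.01 ± 0.89), and Sox9 and Epcam were not called.

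Cholesterol is built from acetyl-CoA by way of mevalonate, farnesyl diphosphate and squalene. SREBP2 switches on the genes of this pathway: when sterols are low in the endoplasmic reticulum, the escort protein SCAP carries SREBP2 to the Golgi for cleavage, and when sterols are high, the INSIG proteins hold the complex back. The liver makes cholesterol for membranes, lipoproteins and bile acids. SREBP2 binds sterol regulatory elements near gene starts, often beside a CCAAT box, which NF-Y binds, and a GC box, which Sp1 binds.

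Start-site windows of 300 bases (250 before and 50 after the annotated start) were available for 22 of the 27 genes in RefSeq, build GRCm38.p6. Those of 5 genes are shown. Hmgcs1 and Insig1 hold a match to a sterol regulatory element, as does Acat2, which is not shown. In the results below, Tm7sf2 had the largest hepCLiP culture difference, and Ebp and Insig2 had a call in both origins. Capitals mark TCACNCCAC, its shorter form CACNCCAC and CCAAT, on either strand. Positions are counted from the annotated start.
Hmgcs1, chr13:119690101-119690400, plus strand: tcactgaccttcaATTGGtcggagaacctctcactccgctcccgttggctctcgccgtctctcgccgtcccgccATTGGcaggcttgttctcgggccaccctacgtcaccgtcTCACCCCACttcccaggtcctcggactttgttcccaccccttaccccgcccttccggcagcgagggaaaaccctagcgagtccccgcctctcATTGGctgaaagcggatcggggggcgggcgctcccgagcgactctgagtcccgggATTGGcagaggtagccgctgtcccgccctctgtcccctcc
Insig1, chr5:28071162-28071461, plus strand: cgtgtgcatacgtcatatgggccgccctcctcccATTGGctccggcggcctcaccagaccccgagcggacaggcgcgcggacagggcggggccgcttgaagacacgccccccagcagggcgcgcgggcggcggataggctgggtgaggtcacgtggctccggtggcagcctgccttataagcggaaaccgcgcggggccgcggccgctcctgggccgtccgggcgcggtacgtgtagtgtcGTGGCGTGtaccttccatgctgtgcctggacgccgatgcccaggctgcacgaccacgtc
Tm7sf2, chr19:6067801-6068100, minus strand: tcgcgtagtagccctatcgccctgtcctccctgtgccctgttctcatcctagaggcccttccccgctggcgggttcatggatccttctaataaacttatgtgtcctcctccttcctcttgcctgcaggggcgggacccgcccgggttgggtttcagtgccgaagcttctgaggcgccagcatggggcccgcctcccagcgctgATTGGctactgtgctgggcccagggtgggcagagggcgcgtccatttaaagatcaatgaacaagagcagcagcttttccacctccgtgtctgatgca
Ebp, chrX:8193463-8193762, minus strand: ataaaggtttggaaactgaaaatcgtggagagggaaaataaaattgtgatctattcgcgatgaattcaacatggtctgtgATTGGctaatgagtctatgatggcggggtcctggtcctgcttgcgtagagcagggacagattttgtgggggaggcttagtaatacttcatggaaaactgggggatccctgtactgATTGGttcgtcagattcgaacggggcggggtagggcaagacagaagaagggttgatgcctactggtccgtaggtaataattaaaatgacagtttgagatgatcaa
Insig2, chr1:121332540-121332839, minus strand, the first of 3 windows: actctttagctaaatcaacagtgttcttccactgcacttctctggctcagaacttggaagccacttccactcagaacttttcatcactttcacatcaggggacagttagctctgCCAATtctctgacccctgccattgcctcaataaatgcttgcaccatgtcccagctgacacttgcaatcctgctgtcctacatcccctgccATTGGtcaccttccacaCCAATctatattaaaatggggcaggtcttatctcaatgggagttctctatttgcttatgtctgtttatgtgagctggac

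The CCAAT letters were in a window of 20 of the 22 genes (90.9%), Acat2 and Scap being the ones without, against 43.2% of 10826 tested genes with a window and 37.4% of all 32851 windows. GGGCGG, the GC box, was likewise in 20 of the 22 genes (not in Pmvk or Npc1l1), against 67.2% of the tested genes and 35.7% of the windows. The longer sterol element, TCACNCCAC, was found in Hmgcs1 alone, at -137 to -129, against 1.46% of tested genes and 1.24% of windows. Its shorter form, CACNCCAC, which lies within the longer one, was in Hmgcs1, Insig1 (at -9 to -2) and Acat2, or 13.6% of the 22 genes, against 7.61% of tested genes and 6.24% of windows. A match is a run of letters and not a shown binding site, and a window without one says only that those letters are not in it. In the printed windows, Hmgcs1 holds 4 CCAAT matches, Insig2 3, Ebp 2, and Tm7sf2 and Insig1 1 each. The Insig2 windows that are not printed hold no match to CCAAT or to either sterol element.

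**Figure D1:**
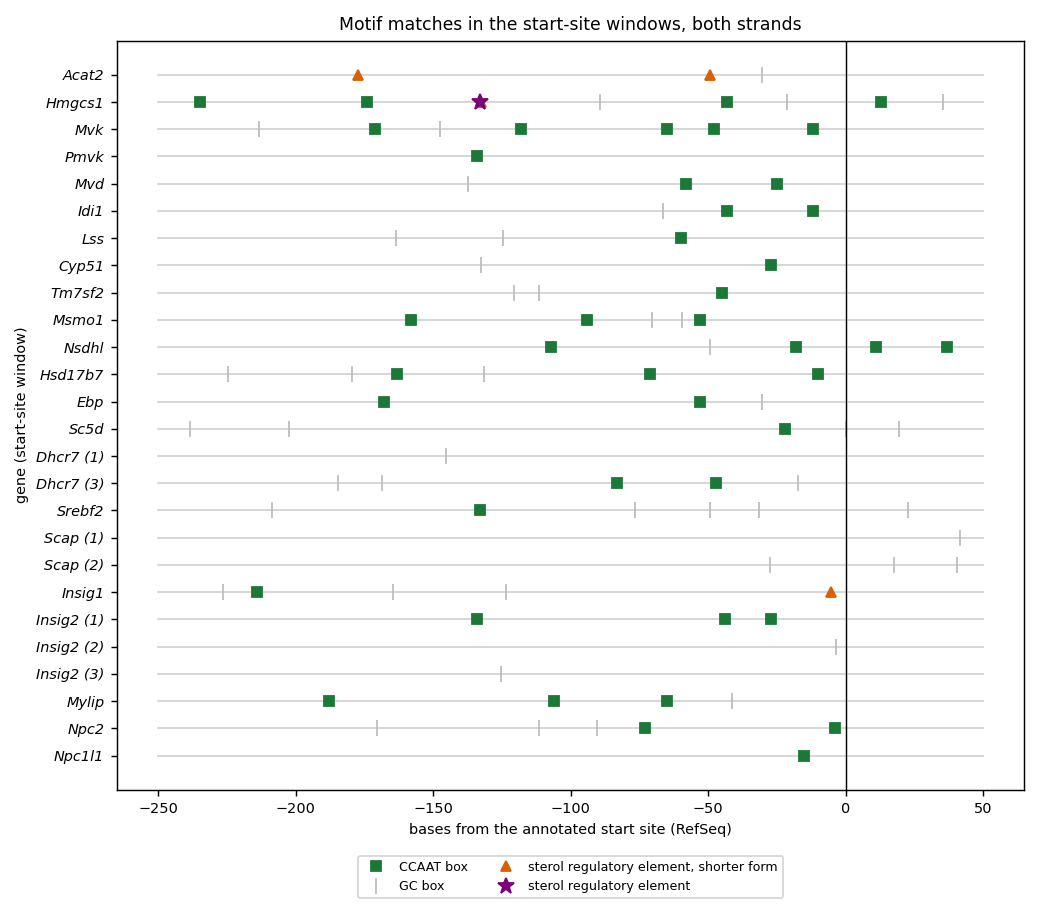
Motif matches on either strand in the RefSeq start-site windows; the horizontal axis gives bases from the annotated start and each row is a gene, with the window number where a gene has more than 1 window with a match. Windows without a match are not drawn; CCAAT matches (squares) occur in 20 of the 22 genes, and the longer sterol element (star) in Hmgcs1 alone.

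In hepCLiP cells, 13 of the 26 tested genes rose in 3D relative to 2D and none fell, where a gene is called at an adjusted p under 0.05 in edgeR's quasi-likelihood test over all 14798 genes. The 13 genes were 10 of the 18 enzymes together with Insig1, Insig2 and Stard4, and the median log2 fold change of the 26 genes was 1.27. Of all genes tested, 34.7% were called, with 16.9% of all genes tested higher and 17.9% lower, and the median of all genes was -0.06. Of the 26 genes, 24 had a positive fold change, against 46.8% of all genes, and 15 of the 26 lay higher in every hepCLiP 3D library than in any hepCLiP 2D library, against 22.3% of all genes. With library totals in place of TMM, 9 of the 26 rose and 1 (Npc2) fell. All genes shifted to a median of -0.63 under that scaling, and the share of them called is not given here. The members' median of 0.69 lay 1.32 above that of all genes, beside 1.33 above it with TMM.

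In the mevalonate arm, 3 of 8 enzymes rose in hepCLiP 3D, against 16.9% of all genes. Acat2, the cytosolic acetoacetyl-CoA thiolase of the first step, had 273, 267 and 145 CPM in hepCLiP 3D replicates 1 to 3, against 97.05, 114 and 50.1 CPM in hepCLiP 2D. Its log2 fold change was 1.39 ± 0.34 (SE; adjusted p = 0.0096). Acat2 carries a near-identical stretch of 1477 bases with its paralog Acat3 (97.7% identity), so reads may have been split between them. Acat3 itself averaged 149 ± 41.8 CPM in hepCLiP 3D and 6.27 ± 0.488 CPM in hepCLiP 2D (SD, n = 3 each). Acat2 also shares 445 bases (98.7% identity) with transcripts of Tcp1, which had 54154 counts in all libraries together, against 29050 for Acat2. Pmvk, which phosphorylates mevalonate phosphate, had 58.1, 58.4 and 38.0 CPM in hepCLiP 3D, against 16.7, 26.4 and 12.6 CPM in hepCLiP 2D, so that the groups did not overlap (1.47 ± 0.31, adjusted p = 0.0045). Fdft1, squalene synthase, had 126, 132 and 101 CPM in hepCLiP 3D, against 49.9, 55.6 and 32.8 CPM in hepCLiP 2D (1.37 ± 0.37, adjusted p = 0.0153). Fdft1 shares 774 identical bases with transcripts of Ctsb, a far more abundant gene, and its adjusted p was 0.0579 on leaving out hepCLiP 2D replicate 3.

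The other 5 mevalonate enzymes were not called in hepCLiP. Hmgcs1, the HMG-CoA synthase that joins acetoacetyl-CoA with acetyl-CoA, had 183, 225 and 129 CPM in hepCLiP 3D, against 53.2, 126 and 48.0 CPM in hepCLiP 2D. All hepCLiP 3D values lay above all hepCLiP 2D values, but replicate 2 in 2D came close, and the log2 fold change of 1.24 ± 0.53 missed the threshold (adjusted p = 0.0916). Mvd, mevalonate diphosphate decarboxylase, had 1.11 ± 0.46 (adjusted p = 0.0845), Fdps, farnesyl diphosphate synthase, 1.76 ± 0.73 (adjusted p = 0.0854) and Idi1, isopentenyl diphosphate isomerase, 0.81 ± 0.43 (adjusted p = 0.170). Fdps was low throughout, between 0.799 and 15.9 CPM, and near-identical to 5 other gene models, so its counts are uncertain, and shorter near-identical stretches of Hmgcs1, Idi1 and Scap occur in other models as well. Idi2, the paralog of Idi1, had at most 1 count per group. Mvk, mevalonate kinase, stood apart with 34.0, 29.5 and 19.2 CPM in hepCLiP 3D, against 20.6, 34.0 and 19.98 CPM in hepCLiP 2D, a log2 fold change of 0.15 ± 0.31 (adjusted p = 0.740).

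In the sterol arm, 7 of 10 enzymes rose in hepCLiP 3D, against 16.9% of all genes. Without overlap between the cultures, 8 of the 10 lay higher in 3D, against 22.3% of all genes. Tm7sf2, a sterol C14-reductase, had 99.6, 144 and 62.0 CPM in hepCLiP 3D, against 13.6, 21.5 and 12.1 CPM in hepCLiP 2D. At 2.695 ± 0.37 (6.48-fold, adjusted p = 0.00049) it had the largest log2 fold change of the 26 genes. Nsdhl, which takes part in C4 demethylation, had 153, 103 and 94.6 CPM in hepCLiP 3D, against 28.1, 39.1 and 20.8 CPM in hepCLiP 2D (1.99 ± 0.42, adjusted p = 0.0047). Ebp, the sterol isomerase, was even within hepCLiP 3D, with 190.4, 186 and 186 CPM in hepCLiP 3D, against 45.9, 58.2 and 72.8 CPM in hepCLiP 2D (1.67 ± 0.25, adjusted p = 0.00076).

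Dhcr7, which reduces 7-dehydrocholesterol to cholesterol, had 186, 163 and 111 CPM in hepCLiP 3D, against 45.7, 56.1 and 31.4 CPM in hepCLiP 2D (1.79 ± 0.32, adjusted p = 0.0020). Lss, lanosterol synthase, had 323, 265 and 137 CPM in hepCLiP 3D, against 72.9, 101 and 39.0 CPM in hepCLiP 2D (1.76 ± 0.46, adjusted p = 0.0132). Sc5d, the sterol C5-desaturase, had 360.4, 274 and 161 CPM in hepCLiP 3D, against 88.0, 112 and 50.9 CPM in hepCLiP 2D (1.66 ± 0.32, adjusted p = 0.0029). In all of these enzymes other than Ebp, replicate 3 was the lowest of its group in both cultures. Hsd17b7, the 3-ketosteroid reductase of the pathway, rose by 1.30 ± 0.37 (adjusted p = 0.0187), but its adjusted p went above the threshold on leaving out hepCLiP 3D replicate 1 (0.0554), hepCLiP 2D replicate 2 (0.0597) or hepCLiP 2D replicate 3 (0.0607).

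Sqle, Cyp51 and Msmo1 were the sterol-arm enzymes without a call in hepCLiP. Sqle, squalene epoxidase, had 701, 349 and 244 CPM in hepCLiP 3D, against 267, 235 and 99.4 CPM in hepCLiP 2D (1.11 ± 0.51, adjusted p = 0.119). Cyp51, lanosterol 14-alpha-demethylase, had 412, 357 and 220.3 CPM in hepCLiP 3D, against 139, 252 and 53.9 CPM in hepCLiP 2D (1.15 ± 0.57, adjusted p = 0.142). Msmo1, the C4-methylsterol oxidase, had 0.96 ± 0.36 (adjusted p = 0.0608). In Sqle and Cyp51 the highest 2D library lay above the lowest 3D library, so the groups overlapped.

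Among the genes that control SREBP2, both INSIG genes rose in hepCLiP 3D, while Srebf2 and Scap were not called. Insig1, itself a target of SREBP2 and a brake on it, had 457, 414 and 175 CPM in hepCLiP 3D, against 88.1, 133 and 37.3 CPM in hepCLiP 2D (2.02 ± 0.52, adjusted p = 0.0123). Insig2, a second brake that does not depend on SREBP2 in the same way, had 89.4, 83.1 and 94.5 CPM in hepCLiP 3D, against 33.7, 34.6 and 39.1 CPM in hepCLiP 2D (1.32 ± 0.12, adjusted p = 7.3e-05). The spread of Insig2 within a group was small, and its SE was the smallest of the 26 genes. Srebf2 had 346, 245 and 163 CPM in hepCLiP 3D, against 339, 328 and 145 CPM in hepCLiP 2D, a log2 fold change of -0.11 ± 0.37 (adjusted p = 0.849). Scap, with 0.46 ± 0.37 (adjusted p = 0.366), overlapped between the cultures as well.

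Of the uptake and transport genes, Stard4 alone was called in hepCLiP. Stard4, a soluble sterol carrier, had 237, 123 and 137 CPM in hepCLiP 3D, against 101, 86.0 and 73.0 CPM in hepCLiP 2D (0.93 ± 0.22, adjusted p = 0.0084). With library totals in place of TMM this call was lost (0.35 ± 0.22, adjusted p = 0.193), as were those of Acat2 (adjusted p = 0.0528), Fdft1 (0.0743) and Hsd17b7 (0.0914). Npc1, the lysosomal membrane protein that exports cholesterol, had a log2 fold change of 0.55 ± 0.24 (adjusted p = 0.105), and a 323-base stretch of its transcripts is shared with Rmc1. Npc2, its soluble partner, had 246, 211 and 269 CPM in hepCLiP 3D, against 235, 254 and 249.8 CPM in hepCLiP 2D (-0.03 ± 0.16, adjusted p = 0.920); with library totals it was called lower (-0.59 ± 0.19, adjusted p = 0.0198), a value close to the shift of all genes under that scaling. Mylip, a ubiquitin ligase that degrades lipoprotein receptors, stayed between 0.139 and 4.25 CPM. Npc1l1, an importer of sterols best known from the intestine, had 6, 3 and 13 counts in hepCLiP 3D, against 1, 1 and 3 counts in hepCLiP 2D, and was not tested.

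**Figure D2:**
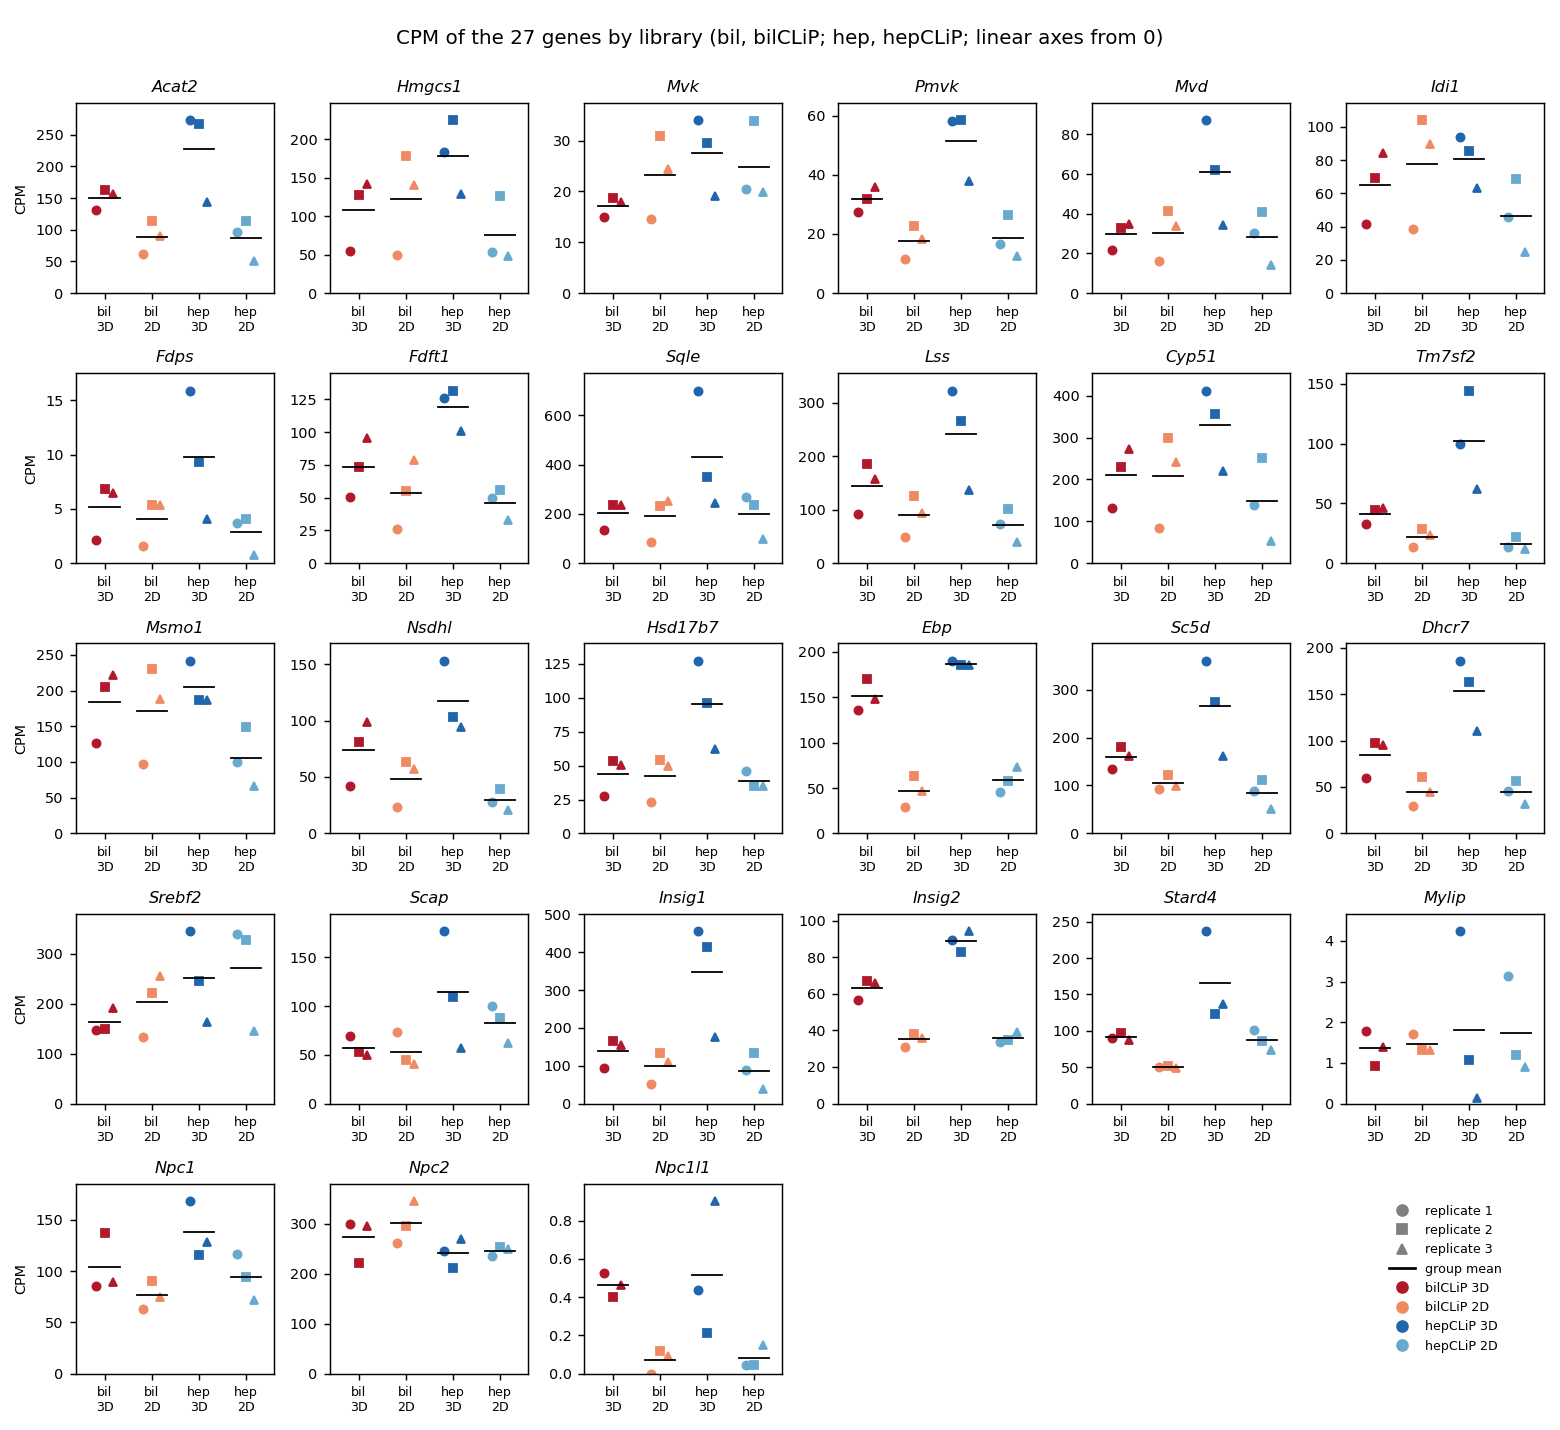
CPM (counts scaled by TMM-adjusted library size, linear axes from 0) of the 27 genes in each of the 12 libraries; marker shape gives the replicate number, colour the group, and the bar the group mean. Tm7sf2, Ebp and Insig2 show 3D libraries above all 2D libraries of the same origin in both origins, while Srebf2 and Npc2 overlap.

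Same-numbered 3D and 2D libraries of one origin deviated from their group means together, and a fit with the replicate number as a block gave more calls in hepCLiP. In that fit 21 of the 26 genes rose and none fell, against 22.4% of all genes called higher. The enzymes called were 17 of 18, all but Mvk (0.15 ± 0.22, adjusted p = 0.591). Hmgcs1 was then called at 1.35 ± 0.20 (adjusted p = 0.0015), Mvd at 1.14 ± 0.21 (0.0038), Idi1 at 0.91 ± 0.21 (0.0110), Fdps at 1.83 ± 0.26 (0.0014), Sqle at 1.09 ± 0.20 (0.0040), Cyp51 at 1.37 ± 0.32 (0.0114), Msmo1 at 1.03 ± 0.23 (0.0090) and Npc1 at 0.56 ± 0.13 (0.0097). Srebf2 was not called in this fit either (-0.07 ± 0.17, adjusted p = 0.752). Within the 3 hepCLiP pairs, 18, 17 and 17 of the 18 enzymes were higher in the 3D library, with median differences of 1.66, 1.18 and 1.54 in log2(CPM + 0.5), while the median over all genes lay between -0.06 and -0.03.

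In bilCLiP cells, 3 of the 26 genes rose in 3D relative to 2D and none fell, in the fit without the block: Ebp, Insig2 and Stard4. Of all genes tested, 30.3% were called, with 15.8% of all genes tested higher and 14.5% lower. The median log2 fold change of the 26 genes was 0.39, with that of all genes near 0. Of the 26, 19 were positive, against 49.9% of all genes. Of the 26 genes, 7 did not overlap and lay higher in bilCLiP 3D, against 24.6% of all genes, a share near the background. With library totals in place of TMM, 2 genes rose (Ebp, Insig2) and 2 fell (Mvk, Npc2). All genes shifted to a median of -0.47 under that scaling, and the share of them called is not given here. The members' median turned to -0.09, which lay 0.38 above that of all genes, beside 0.40 above it with TMM. DESeq2 called 6 of the 26, against 35.8% of all genes.

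Ebp had 136, 170.0 and 148 CPM in bilCLiP 3D, against 29.4, 63.1 and 46.5 CPM in bilCLiP 2D. Its log2 fold change was 1.71 ± 0.25 (adjusted p = 0.00083), and it was called under every one of the alternatives tried for this comparison. Insig2 had 56.4, 66.9 and 65.9 CPM in bilCLiP 3D, against 31.0, 38.2 and 36.0 CPM in bilCLiP 2D (0.85 ± 0.12, adjusted p = 0.00072). Stard4 had 89.8, 96.8 and 87.0 CPM in bilCLiP 3D, against 50.6, 51.3 and 48.3 CPM in bilCLiP 2D (0.87 ± 0.22, adjusted p = 0.0140), a call lost with library totals (0.39 ± 0.22, adjusted p = 0.167). In each of the 3 genes the bilCLiP groups did not overlap.

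In the fit without the block, 0 of the 8 enzymes of the mevalonate arm were called in bilCLiP, against 30.3% of all genes. Their log2 fold changes ran from -0.44 to 0.85. Hmgcs1 had 55.1, 128 and 141 CPM in bilCLiP 3D, against 49.5, 178 and 140.3 CPM in bilCLiP 2D (-0.18 ± 0.52, adjusted p = 0.828). Idi1 had 41.5, 69.5 and 84.5 CPM in bilCLiP 3D, against 38.8, 104 and 89.8 CPM in bilCLiP 2D (-0.25 ± 0.43, adjusted p = 0.700). In both genes replicate 1 was less than the other replicates in either culture, and the difference between replicates exceeded that between cultures. Mvk had 15.0, 18.7 and 17.98 CPM in bilCLiP 3D, against 14.5, 31.0 and 24.4 CPM in bilCLiP 2D (-0.44 ± 0.31, adjusted p = 0.322), and with library totals it was called lower (-0.91 ± 0.29, adjusted p = 0.0259). Mvd had -0.03 ± 0.45, Fdps 0.34 ± 0.71 and Fdft1 0.46 ± 0.36, all with groups that overlapped. Acat2 and Pmvk lay higher in every bilCLiP 3D library, with 131, 163 and 157 CPM in bilCLiP 3D, against 61.2, 114 and 90.8 CPM in bilCLiP 2D, for Acat2 (0.76 ± 0.34, adjusted p = 0.112), and 0.85 ± 0.31 for Pmvk (adjusted p = 0.0574).

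In the sterol arm of bilCLiP, all 10 fold changes were positive, against 49.9% of all genes. Of the 10, 1, that of Ebp, was called higher, against 15.8% of all genes. Tm7sf2 had 32.4, 44.3 and 46.1 CPM in bilCLiP 3D, against 13.9, 28.9 and 23.3 CPM in bilCLiP 2D, without overlap (0.89 ± 0.35, adjusted p = 0.0783). Dhcr7 had 60.1, 97.6 and 95.2 CPM in bilCLiP 3D, against 29.1, 60.9 and 44.6 CPM in bilCLiP 2D (0.91 ± 0.32), just above the threshold at an adjusted p of 0.0514. Lss, Nsdhl and Sc5d had log2 fold changes of 0.70 ± 0.45, 0.63 ± 0.41 and 0.60 ± 0.32. Sqle (0.08 ± 0.51), Cyp51 (0.03 ± 0.56), Msmo1 (0.10 ± 0.36) and Hsd17b7 (0.05 ± 0.36) lay close to 0. Sqle, for one, had 135, 237 and 236 CPM in bilCLiP 3D, against 87.6, 234 and 254 CPM in bilCLiP 2D. Insig1 had 94.1, 166 and 154 CPM in bilCLiP 3D, against 51.9, 133 and 111 CPM in bilCLiP 2D (0.49 ± 0.50, adjusted p = 0.507), and Srebf2 had 147, 148 and 192 CPM in bilCLiP 3D, against 132, 221 and 256 CPM in bilCLiP 2D (-0.32 ± 0.37, adjusted p = 0.548). Scap (0.12 ± 0.37), Npc1 (0.45 ± 0.24), Npc2 (-0.14 ± 0.16) and Mylip (-0.10 ± 0.85) were not called, and Npc1l1 had 8, 7 and 8 counts in bilCLiP 3D, against 0, 3 and 2 counts in bilCLiP 2D.

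With the replicate number as a block, 13 of the 26 genes rose in bilCLiP 3D and none fell, against 21.7% of all genes called higher. The enzymes called were 9 of 18. Added to Ebp, Insig2 and Stard4 were Acat2 (0.80 ± 0.13, adjusted p = 0.0028), Pmvk (0.89 ± 0.18, 0.0066), Fdft1 (0.54 ± 0.15, 0.0204), Lss (0.74 ± 0.15, 0.0069), Tm7sf2 (0.94 ± 0.15, 0.0026), Nsdhl (0.66 ± 0.20, 0.0311), Sc5d (0.60 ± 0.14, 0.0133), Dhcr7 (0.94 ± 0.13, 0.0014), Insig1 (0.55 ± 0.17, 0.0329) and Npc1 (0.43 ± 0.13, 0.0297). Hmgcs1, Mvk, Mvd, Idi1, Fdps, Sqle, Cyp51, Msmo1 and Hsd17b7 were the enzymes not called with the block, at -0.38 to 0.36. Within the 3 bilCLiP pairs, 18, 11 and 15 of the 18 enzymes were higher in the 3D library, with median differences of 0.64, 0.35 and 0.27, beside medians of all genes between -0.01 and 0.02.

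**Figure D3:**
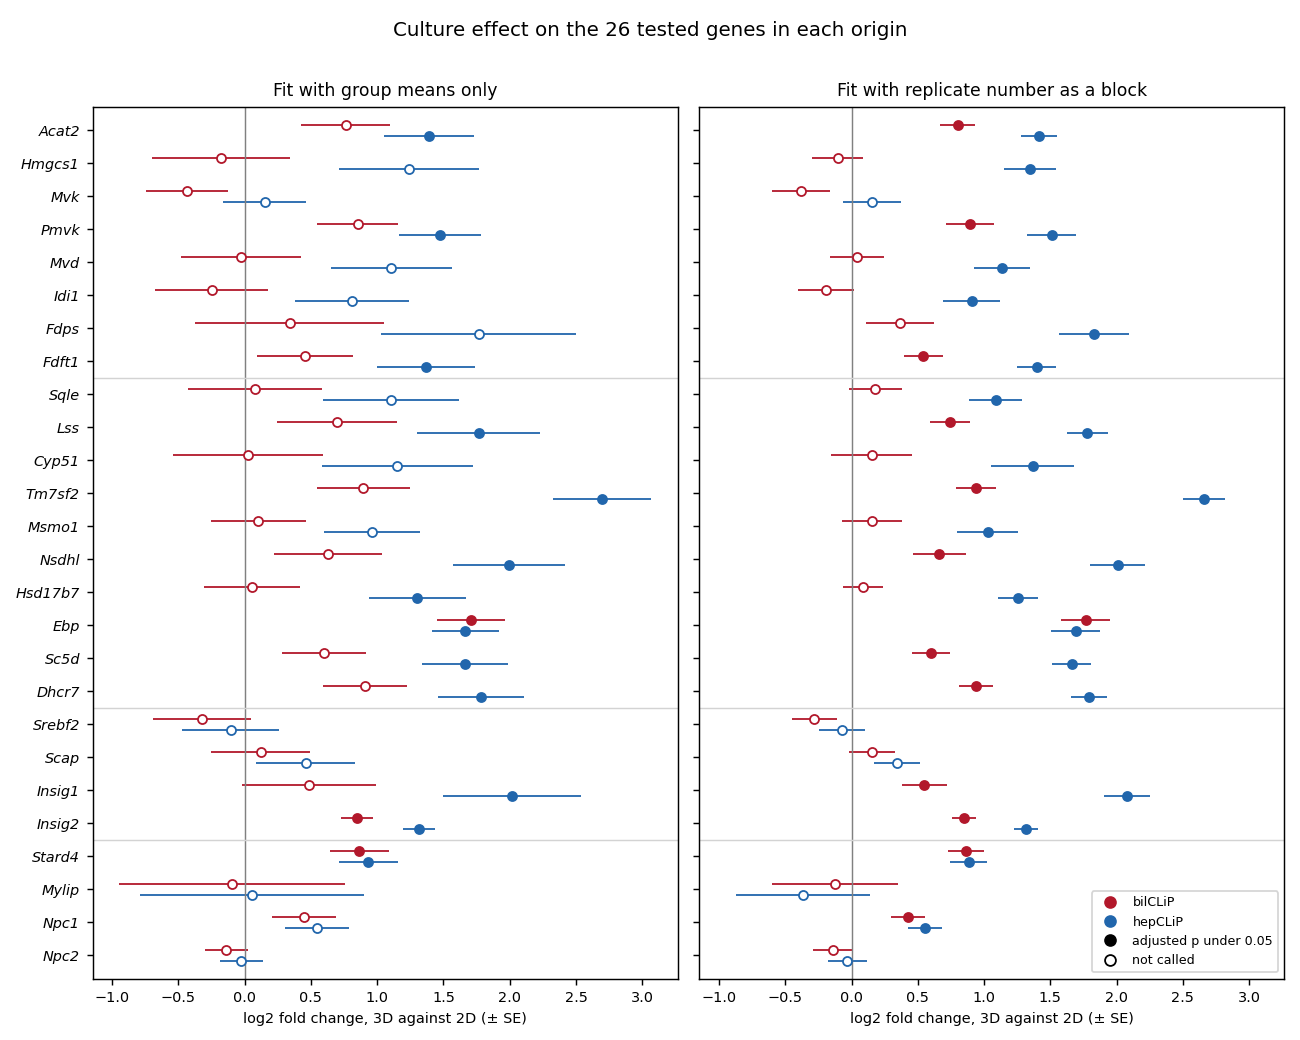
Log2 fold change, 3D against 2D, of the 26 tested genes in bilCLiP (red) and hepCLiP (blue), with SE bars, from the fit of group means (left) and the fit with the replicate number as a block (right); filled points have an adjusted p under 0.05. Grey lines part the mevalonate arm, the sterol arm, SREBP2 control and transport; 3 genes are filled for bilCLiP and 13 for hepCLiP on the left, and 13 for bilCLiP and 21 for hepCLiP on the right.

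**Figure D4:**
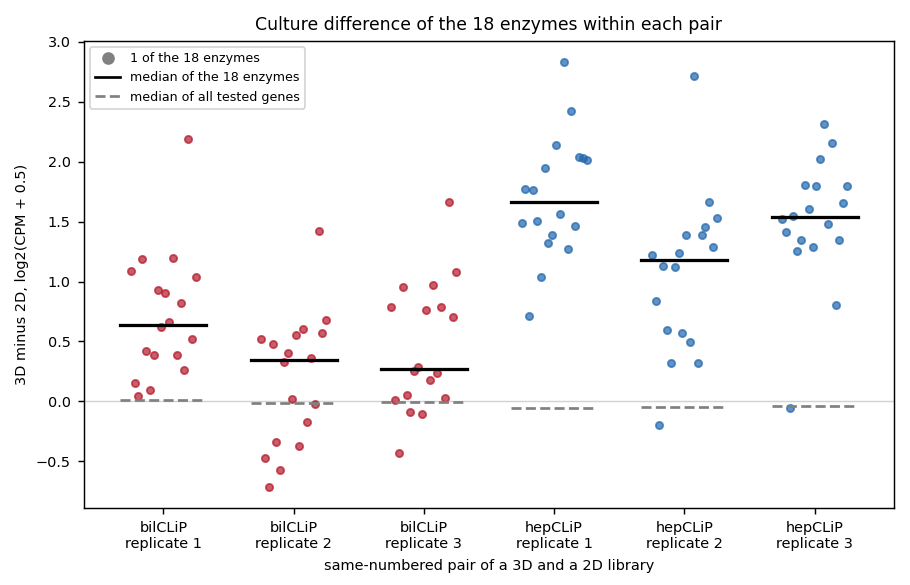
Difference between the same-numbered 3D and 2D libraries in log2(CPM + 0.5) for each of the 18 enzymes (points; their sideways position has no meaning), by pair, with the median of the enzymes (black line) and of all tested genes (dashed). The medians of the enzymes are 0.64, 0.35 and 0.27 in bilCLiP and 1.66, 1.18 and 1.54 in hepCLiP.

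The log2 fold change, 3D against 2D, had a lower signed value in bilCLiP than in hepCLiP for 25 of the 26 genes, but for none of them did the test of that difference pass its threshold. For Mvk, Srebf2, Npc2 and Mylip the bilCLiP value was the one farther from 0, on the negative side. The difference between the fold changes (bilCLiP minus hepCLiP) had a median of -0.90 over the 26 genes and of -1.06 over the 18 enzymes, against 0.06 over all genes, of which 56.4% were positive. Tm7sf2 had -1.80 ± 0.50 (unadjusted p = 0.0042 in edgeR's quasi-likelihood test over 14798 genes), Insig1 -1.53 ± 0.71 and Hmgcs1 -1.42 ± 0.74, and each had an adjusted p of 1. Ebp (0.04 ± 0.35), Stard4 (-0.07 ± 0.31) and Npc1 (-0.10 ± 0.34) had differences near 0. edgeR called 0 of the 26 genes and 0% of all genes, with or without the block. At an unadjusted p under 0.05 stood 5 of the 26 genes without the block (3.6% of all genes) and 18 with it (8.35% of all genes), and DESeq2 called 0 of the 26 and 0.108% of all genes. The 26 genes are not separate observations, since most of the enzymes moved together by library. For 17 of the 18 enzymes, deviations from group means followed those of the other enzymes, with Pearson's r above 0.8. Counts of genes or signs, in this and the other comparisons, are therefore not counts of independent results. No label states the pairs behind the block, which were taken from these same data. Without hepCLiP 2D replicate 3, the median of the 26 differences was -0.69.

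Set side by side in the same culture, bilCLiP 3D lay below hepCLiP 3D for 25 of the 26 genes, Npc2 being the exception, and for 11 of them without overlap, against 10.1% of all genes. The 11 genes were Mvk, Pmvk, Fdft1, Sqle, Tm7sf2, Hsd17b7, Ebp, Dhcr7, Insig1, Insig2 and Stard4. The median log2 fold change, bilCLiP against hepCLiP, was -0.70, with that of all genes near 0, and -0.50 without hepCLiP 3D replicate 1. edgeR called 0 of the 26 (0.101% of all genes), with 10 of the 26 at an unadjusted p under 0.05 (16.6% of all genes), while DESeq2 called Tm7sf2 (adjusted p = 0.0145), Insig2 (0.0048) and Stard4 (0.0164) as lower in bilCLiP, against 4.41% of all genes called. Insig1 had 94.1, 166 and 154 CPM in bilCLiP 3D, against 457, 414 and 175 CPM in hepCLiP 3D (-1.34 ± 0.51, edgeR adjusted p = 0.244). This comparison shares its libraries with those of 3D against 2D, so its values are not independent of theirs. All bilCLiP libraries are tagged RosaYFP and hepCLiP replicates 1 and 3 RosaConfetti, so origin and reporter genotype cannot be fully told apart. The same holds for the difference of the culture effects above and for the 2D comparison below.

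In 2D, the members' median was 0.11, bilCLiP against hepCLiP, and the signs were mixed, with 16 of 26 positive. Stard4 was the sole gene lower in every bilCLiP 2D library than in any hepCLiP 2D library (background 11.9%), with 50.6, 51.3 and 48.3 CPM in bilCLiP 2D, against 101, 86.0 and 73.0 CPM in hepCLiP 2D (-0.79 ± 0.22, edgeR adjusted p = 0.194). Npc2 was the sole gene higher without overlap (background 9.06%), at 0.29 ± 0.16. edgeR called 0 of the 26 (0.135% of all genes), with 1 at an unadjusted p under 0.05 (14.5% of all genes), and DESeq2 called Stard4 (adjusted p = 0.0447), against 3.78% of all genes. Without hepCLiP 2D replicate 3 the median was -0.08.

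The enzymes differed more between replicates than most genes did, and they did so together. The median SD of the 18 enzymes within a group, in log2(CPM + 0.5), was 0.45 in bilCLiP 3D, 0.45 in hepCLiP 3D, 0.68 in bilCLiP 2D and 0.58 in hepCLiP 2D, beside 0.24, 0.28, 0.24 and 0.26 for all tested genes. The 18 enzymes summed to 1261, 2007 and 2063 CPM in bilCLiP 3D replicates 1 to 3, against 748, 1832 and 1577 CPM in bilCLiP 2D. In hepCLiP they summed to 3665, 2992 and 1996 CPM in 3D, against 1163, 1529 and 685 CPM in 2D. BilCLiP replicate 1 and hepCLiP replicate 3 were thus the low ones of their origin in both cultures. As a share of all counts without TMM, the enzymes made up 0.155% ± 0.0324 in bilCLiP 3D and 0.168% ± 0.0662 in bilCLiP 2D, and 0.226% ± 0.0573 in hepCLiP 3D and 0.132% ± 0.05 in hepCLiP 2D (SD, n = 3 each), so that the order of the bilCLiP means turned with the scaling.

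The number of the 18 enzymes above their group mean was 0, 18 and 17 in bilCLiP 3D replicates 1 to 3 and 0, 18 and 17 in bilCLiP 2D. It was 18, 14 and 0 in hepCLiP 3D and 11, 17 and 1 in hepCLiP 2D. Averaged over both cultures, bilCLiP replicate 1 was lowest for 18 of 18 enzymes and hepCLiP replicate 3 for 17 of 18, Ebp being lowest in hepCLiP replicate 1. The median range between the replicate numbers was 1.03 in bilCLiP and 0.96 in hepCLiP, beside 0.38 and 0.45 for all tested genes, of which 12.6% and 16% had a wider range. BilCLiP replicate 1 had 16142365 counts in 3D, the fewest of all libraries, and 18449912 in 2D, between the other bilCLiP 2D libraries, and hepCLiP replicate 3 had the fewest counts of its group in both cultures (17138049 in 3D and 17205183 in 2D). Hepatocyte markers summed to 17329 CPM in bilCLiP 3D replicate 1, against 43076 and 37732 CPM in replicates 2 and 3, and to 40569 CPM in hepCLiP 3D replicate 3, against 51233 and 50886 CPM in replicates 1 and 2. In 2D they were 178 CPM in bilCLiP replicate 1, the lowest there, and 1600 CPM in hepCLiP replicate 3, the highest there. The part of depth and of these markers in the replicate difference was not tested.

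The members differed in how closely they followed the enzymes. The deviation of each gene from its group means was set against the mean deviation of the other enzymes over the 12 libraries, as a description, since the libraries share groups and pairs. For 17 of the 18 enzymes Pearson's r was above 0.8 (Sc5d, at 0.81, had 0.77 without hepCLiP 2D replicate 3), led by Dhcr7 (0.98) and Lss (0.98), while Ebp had 0.41, or 0.67 without hepCLiP 2D replicate 3. Among the other members, Insig1 (0.97) and Srebf2 (0.86) followed the enzymes closely. Npc1 (0.63), Stard4 (0.36), Insig2 (0.30), Mylip (0.29), Scap (0.11) and Npc2 (0.01) had lower values, that of Insig2 being 0.53 without hepCLiP 2D replicate 3. Of 14780 other tested genes 1.87% had an r above 0.8.

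**Figure D5:**
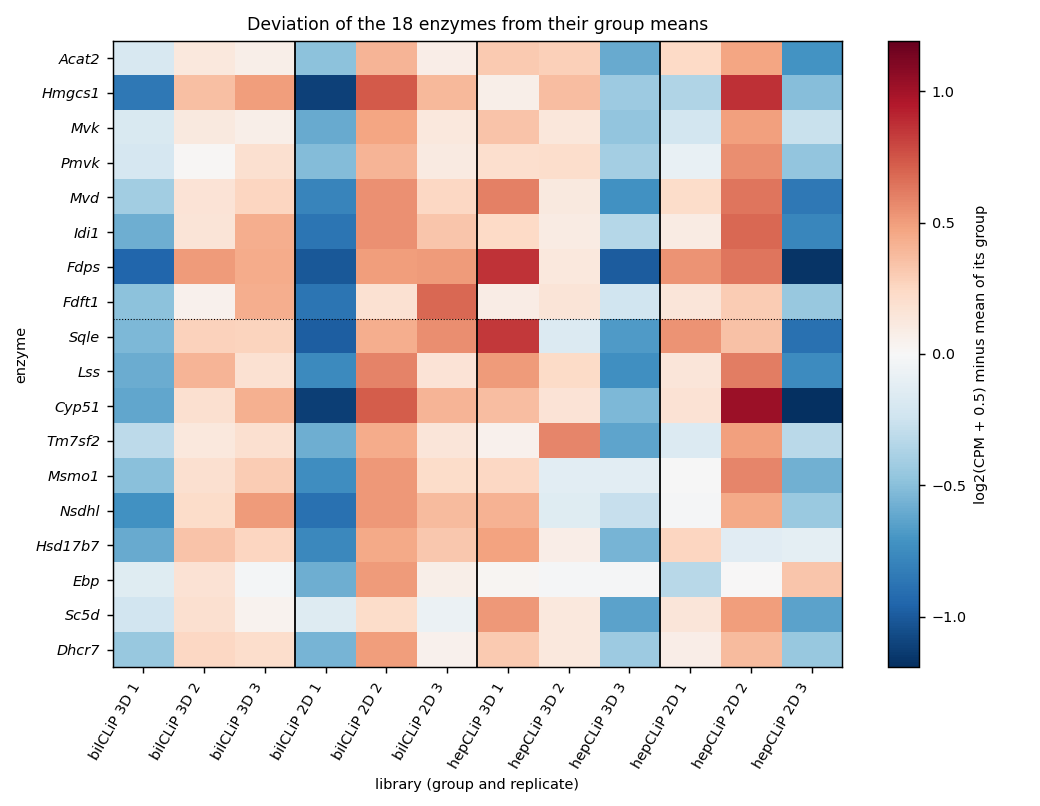
Deviation of each of the 18 enzymes (rows) from the mean of its group in log2(CPM + 0.5), by library (columns), red above and blue below the group mean. Most columns are of nearly 1 colour: bilCLiP replicate 1 has 0 of 18 enzymes above the group mean in 3D and in 2D, and hepCLiP replicate 3 has 0 in 3D and 1 in 2D. Columns of hepCLiP 3D replicate 2 (14 of 18) and hepCLiP 2D replicate 1 (11 of 18) are mixed.

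Genes of the surrounding sterol pathways were counted in the same fits. Their lists were chosen with earlier results of these data known, so the counts are a description. The genes named are up to 3 per list with the largest called changes, and genes that moved the other way may go unnamed. Among all tested genes, 15.8% were called higher and 14.5% lower in bilCLiP 3D. In hepCLiP 3D these shares were 16.9% and 17.9%. Of 8 genes of the liver X receptors (LXR, sterol sensors that promote efflux) and of sterol efflux, 5 rose with 3D culture in bilCLiP and 5 in hepCLiP, and none fell, with medians of 2.74 in bilCLiP and 2.60 in hepCLiP. Abca1, which loads cholesterol onto apolipoprotein A-I, averaged 221 ± 18.4 CPM in bilCLiP 3D and 11.04 ± 9.07 CPM in bilCLiP 2D, and 393 ± 109 CPM in hepCLiP 3D and 16.6 ± 9.87 CPM in hepCLiP 2D (SD, n = 3 each). Abcg5 and Abcg8, the paired subunits of the biliary sterol exporter, rose by 6.46 ± 1.14 and 6.25 ± 1.05 in bilCLiP (edgeR adjusted p = 0.0021 and 0.0016), and by 6.70 ± 1.16 and 5.37 ± 0.97 in hepCLiP (0.0016 and 0.0020). Of 8 genes of esterification, ester hydrolysis and lipoprotein receptors, 4 rose and 1 fell in bilCLiP 3D, and 5 rose and 1 fell in hepCLiP 3D. Soat2, the hepatocyte form of the acyltransferase that makes cholesterol esters, averaged 67.1 ± 16.6 CPM in bilCLiP 3D and 13.1 ± 10.1 CPM in bilCLiP 2D, and 77.0 ± 17.8 CPM in hepCLiP 3D and 16.7 ± 8.29 CPM in hepCLiP 2D. Soat1, the widely expressed form, moved the other way, with 11.03 ± 2.78 CPM in bilCLiP 3D and 72.7 ± 32.4 CPM in bilCLiP 2D, and 10.2 ± 1.44 CPM in hepCLiP 3D and 64.2 ± 36.2 CPM in hepCLiP 2D. Lcat, the plasma cholesterol acyltransferase, rose by 5.14 ± 0.90 in bilCLiP and 5.58 ± 0.91 in hepCLiP.

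Of 9 intracellular sterol carriers, 6 rose in each origin, with Scp2, sterol carrier protein 2, at 966 ± 208 CPM in bilCLiP 3D and 148 ± 14.4 CPM in bilCLiP 2D, and 1042 ± 128 CPM in hepCLiP 3D and 139.8 ± 21.96 CPM in hepCLiP 2D. Stard5 rose by 1.22 ± 0.39 and Osbpl9 by 0.55 ± 0.14 in bilCLiP, and by 1.41 ± 0.39 and 1.06 ± 0.14 in hepCLiP. Of 13 genes of SREBP processing and sterol-regulated degradation in the endoplasmic reticulum, 6 rose and 2 fell in bilCLiP 3D, and 7 rose and 2 fell in hepCLiP 3D. Erlin1, a membrane protein of that degradation, rose by 1.42 ± 0.17 in bilCLiP and 1.63 ± 0.17 in hepCLiP, ahead of the ubiquitin ligases Syvn1 (0.85 ± 0.19 in bilCLiP and 0.87 ± 0.19 in hepCLiP) and Marchf6 (0.69 ± 0.23 in bilCLiP and 0.79 ± 0.23 in hepCLiP). Of 8 genes of acetyl-CoA supply, electron donors and SREBP1, 3 rose with 3D culture in bilCLiP and 5 in hepCLiP, both without the block. With the replicate block 6 rose in bilCLiP, where 21.7% of all genes were called higher. The hepCLiP count with the block is not given here. Acss2, which makes acetyl-CoA from acetate, rose by 1.87 ± 0.28 in bilCLiP and 2.89 ± 0.29 in hepCLiP. Srebf1, which encodes SREBP1, rose by 0.82 ± 0.21 in bilCLiP and 1.00 ± 0.21 in hepCLiP, and Slc25a1, the citrate carrier, by 1.13 ± 0.23 in hepCLiP, with 0.48 ± 0.23 and no call in bilCLiP.

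The isoprenoid branches leave the pathway before squalene. Of their 12 genes, 1 rose and 1 fell in bilCLiP 3D, and 1 rose and 2 fell in hepCLiP 3D. The share called, 16.7% in bilCLiP and 25% in hepCLiP, lay below that of all genes (30.3% and 34.7%). Dhdds, of dolichol synthesis, rose by 0.84 ± 0.14 in bilCLiP and 0.65 ± 0.14 in hepCLiP. Pdss1, of the ubiquinone side chain, averaged 4.94 ± 1.54 CPM in bilCLiP 3D and 10.4 ± 0.937 CPM in bilCLiP 2D, and 4.13 ± 0.626 CPM in hepCLiP 3D and 11.1 ± 2.31 CPM in hepCLiP 2D. Ggps1, which makes geranylgeranyl diphosphate, fell in hepCLiP 3D (-0.67 ± 0.20) and was not called in bilCLiP (-0.46 ± 0.20). Of 4 genes of oxysterol synthesis, 2 rose in bilCLiP 3D, and 2 rose and 1 fell in hepCLiP 3D. Cyp27a1, sterol 27-hydroxylase, averaged 95.7 ± 39.7 CPM in bilCLiP 3D and 9.91 ± 4.29 CPM in bilCLiP 2D, and 96.5 ± 20.1 CPM in hepCLiP 3D and 8.05 ± 3.20 CPM in hepCLiP 2D. Cyp7b1, an oxysterol 7-hydroxylase, rose in both origins at low levels, up to a mean of 2.52 CPM. Ch25h, cholesterol 25-hydroxylase, had 4 counts in bilCLiP 3D against 60 in bilCLiP 2D, and 0 in hepCLiP 3D against 110 in hepCLiP 2D, summed over 3 libraries. With library totals in place of TMM, 1 of the 13 SREBP processing genes rose and 3 fell in each origin. Of the 12 isoprenoid genes 1 rose and 6 fell in bilCLiP 3D, and 0 rose and 8 fell in hepCLiP 3D. All genes shifted with library totals, to medians of -0.47 in bilCLiP and -0.63 in hepCLiP, and the share of them called is not given here. Under that scaling the counts of genes that rose also dropped for the carriers (1 in bilCLiP and 2 in hepCLiP), for acetyl-CoA supply (1 in bilCLiP and 2 in hepCLiP) and for esterification (2 in bilCLiP and 3 in hepCLiP), while 5 genes of LXR and efflux rose in each origin. Relative to the median of all genes, the median of the carriers was 0.61 in bilCLiP and 0.79 in hepCLiP under both scalings, that of SREBP processing 0.59 in bilCLiP and 0.61 in hepCLiP, and that of the isoprenoid branches -0.04 in bilCLiP, with 0.0082 in hepCLiP with TMM and 0.0045 with library totals. For acetyl-CoA supply it was 0.68 in bilCLiP and 0.98 in hepCLiP with TMM, and 0.66 in bilCLiP and 0.97 in hepCLiP with library totals.

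Markers of other cell types were counted beside these results. Fibroblast markers (Col1a1, Col1a2, Dcn and Lum) summed to 283 CPM in hepCLiP 3D replicate 1, nearly all from Dcn (282 CPM), and to at most 18.9 CPM in every other library. The enzymes' sum was highest in that same library, and without it 12 members were called in hepCLiP 3D against 2D. Endothelial markers (Pecam1, Cdh5, Stab2 and Clec4g) summed to at most 0.749 CPM, and macrophage and leukocyte markers (Ptprc, Adgre1, Csf1r and Clec4f) to at most 16.99 CPM, with Adgre1 and Clec4f at 0 in all groups but hepCLiP 2D. Mesothelial markers (Msln, Upk3b and Lrrn4) summed to between 5.42 and 27.8 CPM in 3D and between 333 and 989 CPM in 2D, nearly all of it Msln, while Upk3b and Lrrn4 had 0 counts in 3D and at most 4 counts per library in 2D. Fewer cells of a type and less RNA per cell cannot be told apart in these bulk libraries. The part of these markers in the results was not tested.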

How the data were processed

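RNA of 12 libraries, 3 in each of 4 groups, was measured by RNA-seq. Per the submitters' processing notes, reads were processed with STAR 2.7.10b, featureCounts 2.0.1 and DESeq2 on GRCm39; the sources used here do not give the annotation, the strand setting or the treatment of multiply mapped reads. The authors deposited raw counts per gene (the unit tested here) and a table of normalised values, a signal equal to the deposited raw counts divided by 1 constant per library (largest relative deviation 6.32e-10).

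Counts were filtered with filterByExpr, scaled with TMM and fitted with edgeR 4.0.16 (R 4.3.3; glmQLFit, robust) as 4 group means over all 12 libraries, for 5 contrasts, with Benjamini-Hochberg adjustment over 14798 genes and a threshold of 0.05. SEs are the log2 fold change divided by the square root of F. A pseudocount of 0.5 CPM was used for log levels. The fit code was tested on simulated data. Alternatives were DESeq2 1.42.0, limma 3.58.1 on the normalised table, other scalings, no filter, the compared groups alone, each library left out in turn, and the replicate number as a block; library totals without TMM were added after seeing the data. The members and lists were chosen with earlier results of these data known. All 27 members are named, with up to 3 called genes of at least 1 CPM per other list, by size of fold change, and paralogs of members. Near-identical copies were found by aligning GENCODE vM21 transcripts (at least 95% identity over 200 bases).

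Per the labels' protocols, spheroids were made from the 2D cultures. The deviations of same-numbered 3D and 2D libraries from their group means correlated across genes. The correlations were 0.516, 0.465 and 0.435 in bilCLiP and 0.489, 0.495 and 0.511 in hepCLiP, so the numbers were taken as pairs. Those of other numbers were -0.371 to -0.0294, which is partly forced, since deviations within a group sum to 0 for each gene. No label states the pairs, so the block fit rests on pairs taken from these same data.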

Additional observations from a re-analysis of the deposited data

How the results depend on the processing

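Among the 26 tested genes, 13 were called in hepCLiP 3D against 2D, 21 with the replicate number as a block and 11 to 15 with 1 library left out. Of all genes, 34.7% were called there, and 22.4% were called higher with the block. DESeq2 called 5867 of all 14798 genes there. Beyond the calls of edgeR without the block, it called Hmgcs1 (DESeq2 adjusted p = 0.0350), Mvd (0.0357), Fdps (0.0301) and Msmo1 (0.0202). In bilCLiP 3D against 2D, 3 were called (30.3% of all genes) and 6 with DESeq2 (35.8%). With the replicate block 13 were called, where 21.7% of all genes were called higher, and with 1 library left out 3 to 5. The shares of all genes with 1 library left out are not given here. The count of 5 came without bilCLiP 2D replicate 2 and without hepCLiP 2D replicate 3. For bilCLiP against hepCLiP, none was called by edgeR, and DESeq2 called 3 in 3D and 1 in 2D. No gene was called for the difference of the culture effects under any alternative, and no called value changed sign. Over all alternatives, 8 values of the single genes lost their call in hepCLiP 3D against 2D and 22 gained one, with 1 and 25 in bilCLiP 3D against 2D; the cause was not tested. The block cannot be used between origins, which share no number as a pair, and a fit of the compared groups alone was not run for the difference, which needs all 4 groups. With 3 libraries per group, an exact permutation test of a single gene cannot go below a p of 0.1. Fdps, Mylip and Npc1l1 have low counts, and their fold changes are accordingly imprecise or not given.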
